A study of Saccharomyces cerevisiae and Kluyveromyces marxianus with 18 samples.

Results

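The cytochrome bc1 complex, or complex III, is the membrane enzyme of the mitochondrial respiratory chain that takes electrons from ubiquinol and hands them to cytochrome c. Transcripts of its nuclear-encoded subunits were compared between chemostat cultures of Kluyveromyces marxianus CBS6556, a thermotolerant yeast, and Saccharomyces cerevisiae CEN.PK113-7D, a laboratory strain, with falling access to oxygen and sterol. The members were the rows of the count tables whose S. cerevisiae S288C locus is that of COR1 (YBL045C), QCR2 (YPR191W), QCR6 (YFR033C), QCR7 (YDR529C), QCR8 (YJL166W), QCR9 (YGR183C), QCR10 (YHR001W-A), RIP1 (YEL024W) or CYT1 (YOR065W). Of these 9 loci, 7 had a matched row among the 5330 genes of K. marxianus and 8 among the 6171 genes of S. cerevisiae. QCR6 of K. marxianus and QCR10 of both yeasts were not analysed here. All 7 and 8 genes passed the filter on low counts.

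The members fall into 3 roles. RIP1, the Rieske iron-sulfur protein, and CYT1, cytochrome c1, are the redox subunits that carry electrons from ubiquinol towards cytochrome c. COR1 and QCR2 are the large core proteins on the matrix side, relatives of the subunits of the matrix processing peptidase. QCR6, QCR7, QCR8, QCR9 and QCR10 are small subunits without redox groups: QCR7 and QCR8 join cytochrome b early in assembly in S. cerevisiae, and QCR6 is an acidic protein that lies close to cytochrome c1. Cytochrome b itself is encoded in mitochondrial DNA and is not among the members. The complex turns over only while cytochrome c is reoxidised, normally by oxygen at cytochrome c oxidase. In S. cerevisiae many respiratory genes are known to be activated by the Hap2/3/4/5 factor, which binds CCAAT sequences.

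All cultures were wild type and ran at a dilution rate of 0.1 per h and pH 6 in urea medium with antifoam. The aerobic group was fed glucose at 7.5 g/L, with ergosterol at 10 mg/L and Tween 80 at 0 mg/L. The oxygen-limited (micro-aerobic) group was fed glucose at 20 g/L, with ergosterol at 10 mg/L and Tween 80 at 420 mg/L. The anaerobic cultures, all at 20 g/L glucose, were TE, with 420 mg/L Tween 80 as well as 10 mg/L ergosterol, and T, with 420 mg/L Tween 80 and 0 mg/L ergosterol. Unsupplemented anaerobic cultures, of S. cerevisiae only, had 0 mg/L of both. Ergosterol is the yeast sterol, whose synthesis needs oxygen, and Tween 80 is a source of unsaturated fatty acid. Aerobic cultures therefore differ from all others in glucose as well as oxygen, and from all but the unsupplemented ones in Tween 80. Every group had 2 libraries, which the labels call biological replicates.

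In the submitters' annotation, the only coordinates used for these strains, K. marxianus COR1 (KM6556v0_H000860) lies on chromosome 8 from 160656 to 161993 and QCR2 (KM6556v0_D005120) on chromosome 4 from 1074881 to 1076746. RIP1 (KM6556v0_A007490) lies on chromosome 1 from 1510873 to 1511514 and CYT1 (KM6556v0_B002590) on chromosome 2 from 552913 to 553791. The small subunits are QCR7 (KM6556v0_A000300; chromosome 1, 64137 to 64520), QCR8 (KM6556v0_A003780; chromosome 1, 777617 to 777901) and QCR9 (KM6556v0_B002040; chromosome 2, 430923 to 431252). In S. cerevisiae, COR1 (SCEN_B00680) lies on chromosome 2 from 134427 to 135800 and QCR2 (SCEN_P04830) on chromosome 16 from 921383 to 922489. RIP1 (SCEN_E00640) lies on chromosome 5 from 108174 to 108821 and CYT1 (SCEN_O02340) on chromosome 15 from 447326 to 448255. The small subunits are QCR6 (SCEN_F01100; chromosome 6, 226340 to 226777), QCR7 (SCEN_D07700; chromosome 4, 1475340 to 1475723), QCR8 (SCEN_J00600; chromosome 10, 95216 to 95500) and QCR9 (SCEN_G04600; chromosome 7, 885345 to 885758). No member overlaps another annotated gene. The small subunits have rows of 285 to 438 bp, against 642 to 930 bp for the redox subunits and 1107 to 1866 bp for the core proteins. The QCR2 row of K. marxianus, at 1866 bp, is longer than that of S. cerevisiae, at 1107 bp.

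Sequence upstream of the members is shown because CCAAT sites are the known entry point of the Hap2/3/4/5 factor. The only genome at hand was that of S. cerevisiae S288C (RefSeq, build R64), so the letters are those of S288C and not of the strains grown here. In the 500 bases before the gene start, searched on both strands, the extended motif ACCAATNA occurred in 3 of 9 members and in 516 of 6000 such windows over all genes (8.6%). The 3 matches, in capitals and written in the direction of the gene, lie 351, 182 and 248 bases upstream of COR1, QCR7 and RIP1, counted to the first letter of the motif. The windows are chrII:135849-135878 (minus strand), chrIV:1496712-1496741 (minus strand) and chrV:107001-107030 (plus strand).
COR1: acgctttctgcACCAATGAaatgccaataa
QCR7: atcttgttttgACCAATCAggagcgacgcg
RIP1: ctccataacggACCAATCAgcgttttgcgc
Each role is represented once among these genes. The shorter core CCAAT, which every ACCAATNA match contains, occurred in 8 of 9 members and in 62.4% of all windows, and had no match in the window of CYT1. The windows of 500 bases reach into the next gene for some members, as for QCR7, which has 242 bases before it. For CYT1 they cover only part of the 700 bases before the next gene. The 3 sequences shown lie outside other annotated genes. These matches are descriptions of letters, not evidence of binding.

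Library depth was 6510449 to 10660870 counts in K. marxianus and 2849618 to 13112466 in S. cerevisiae. Replicate 2 of the unsupplemented cultures was the shallowest, and 19.8% of its counts lay in the single gene SCEN_L02180, against 0.0110% to 0.117% in the other 9 S. cerevisiae libraries. The groups also differ in a code in the sample titles: only T with TE in K. marxianus and unsupplemented with TE in S. cerevisiae share one, so elsewhere group and code cannot be told apart. In S. cerevisiae, differences between groups that do not share a code moved with gene length over the whole genome. The median log2 difference of genes of 450 bp or less, the class of all 4 S. cerevisiae small subunits, was 0.85 in oxygen-limited against aerobic, 0.63 in TE against aerobic, -0.25 in TE against oxygen-limited and -0.98 in T against TE cultures. For genes over 1000 bp, the class of the core proteins, the same medians were -0.27, -0.17, 0.07 and 0.19. In K. marxianus the medians for genes of 450 bp or less were -0.27, 0.34, 0.43 and 0.29 in the same comparisons, and for those over 1000 bp -0.03, -0.17, -0.19 and -0.05. The last of these comparisons, T against TE, is between groups that share a code. Fold changes that set small against larger subunits are therefore also given with an offset that levels each library over gene length, an alternative chosen after seeing the data.

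Levels below are CPM, each gene's count per library size, with library sizes scaled by trimmed mean of M-values (TMM) factors, and changes are log2 fold changes from edgeR's quasi-likelihood test with Benjamini-Hochberg adjustment over all genes. A gene is called at an adjusted p under 0.05. Together the members held 0.0449% to 0.426% of the counts of a K. marxianus library and 0.0181% to 1.13% of those of an S. cerevisiae library. Values of this kind are relative within a library, so fewer transcripts of a gene per cell and more of all others cannot be told apart.

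In K. marxianus the bc1 transcripts were lower in oxygen-limited than in aerobic cultures. Of 7 members, 6 fell, where 47% of the 5143 genes tested were called, 22% higher and 25% lower. The median log2 change of the members was -0.85, against -0.08 over all genes. COR1 had 314.2 and 292.0 CPM in oxygen-limited cultures, against 803.9 and 783.4 CPM in aerobic cultures. This core protein had the largest fall of the 7, a log2 change of -1.39 ± 0.14 (SE; adjusted p = 0.000254). The other core protein, QCR2, had 400.9 and 412.0 CPM in oxygen-limited and 822.7 and 833.7 CPM in aerobic cultures, a log2 change of -1.03 ± 0.26 (adjusted p = 0.0161). The QCR2 call was lost when any library of either group was left out, with adjusted p between 0.0690 and 0.0945. RIP1 had 365.4 and 354.8 CPM in oxygen-limited and 728.4 and 709.8 CPM in aerobic cultures, and CYT1 had 275.0 and 265.0 CPM in oxygen-limited and 497.0 and 476.7 CPM in aerobic cultures. These redox subunits changed by -1.0 ± 0.13 and -0.85 ± 0.17. The CYT1 call was lost without oxygen-limited replicate 2 (adjusted p = 0.0589).

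Among the small subunits, QCR8 had 421.8 and 456.1 CPM in oxygen-limited and 737.0 and 705.5 CPM in aerobic cultures. QCR9 had 114.5 and 122.4 CPM in oxygen-limited and 199.6 and 217.8 CPM in aerobic cultures. They fell by 0.72 and 0.82 on the log2 scale. QCR7, the early-assembling partner of cytochrome b, had 352.2 and 361.9 CPM in oxygen-limited cultures, against 410.4 and 410.7 CPM in aerobic cultures. That log2 change of -0.20 ± 0.11 was not called (adjusted p = 0.171), although the groups did not overlap, and it was called with only these groups fitted or without either T library (0.0166 and 0.0169). The groups did not overlap in 7 of 7 members, with oxygen-limited lower, as in 48.2% of all genes. The length-class medians were small here, -0.27 for genes of 450 bp or less and -0.03 for those over 1000 bp, and 6 members were called with the length offset too.

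In S. cerevisiae the subunits moved in both directions between the same groups. All 4 small subunits were higher in oxygen-limited than in aerobic cultures, the redox subunits were lower and the core proteins were not called. In this comparison 62.6% of the 5849 genes tested were called, 30.8% higher and 31.8% lower. QCR7 had 2961 and 1639 CPM in oxygen-limited cultures, against 940.2 and 871.7 CPM in aerobic cultures, a 2.54-fold difference (log2 1.34 ± 0.28; adjusted p = 0.00359). QCR9, a small subunit needed for a working Rieske protein in S. cerevisiae, had 1604 and 940.0 CPM in oxygen-limited and 503.9 and 510.9 CPM in aerobic cultures (log2 1.33 ± 0.25; adjusted p = 0.00216). QCR6 had 2131 and 1206 CPM in oxygen-limited and 740.1 and 706.1 CPM in aerobic cultures, and QCR8 had 2133 and 1393 CPM in oxygen-limited and 835.3 and 811.0 CPM in aerobic cultures. QCR6 and QCR8 rose by 1.21 ± 0.25 and 1.1 ± 0.23 on the log2 scale. Both oxygen-limited libraries lay above both aerobic ones in these 4 genes, as in 37.7% of all genes.

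CYT1 had 479.1 and 299.8 CPM in oxygen-limited cultures, against 860.9 and 804.0 CPM in aerobic cultures, a log2 change of -1.1 ± 0.21 (adjusted p = 0.00249). RIP1 had 602.3 and 352.2 CPM in oxygen-limited and 948.0 and 862.2 CPM in aerobic cultures, a log2 change of -0.92 ± 0.23 (adjusted p = 0.00897). The RIP1 call was lost without aerobic replicate 1 (adjusted p = 0.0509) and with only these groups fitted (0.0586). COR1 had 1024 and 704.1 CPM in oxygen-limited and 1123 and 1073 CPM in aerobic cultures, and QCR2 had 711.1 and 467.1 CPM in oxygen-limited and 731.0 and 705.0 CPM in aerobic cultures, which overlap. The core proteins had log2 changes of -0.35 ± 0.19 and -0.29 ± 0.20 (adjusted p = 0.149 and 0.239). Oxygen-limited replicate 1 exceeded replicate 2 in all 8 members, by 0.54 to 0.85 on the log2 scale. Without replicate 1, both core proteins were called lower (log2 changes of -0.64 and -0.62). With the gene-length offset none of the small subunits was called (log2 changes of 0.23 to 0.58; adjusted p = 0.0620 to 0.356), while RIP1 at -1.38 and CYT1 at -1.29 stayed lower. The part of gene length or title code in the rise of the small subunits was not tested, and the code cannot be told apart from oxygen supply.

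**Figure D1:**
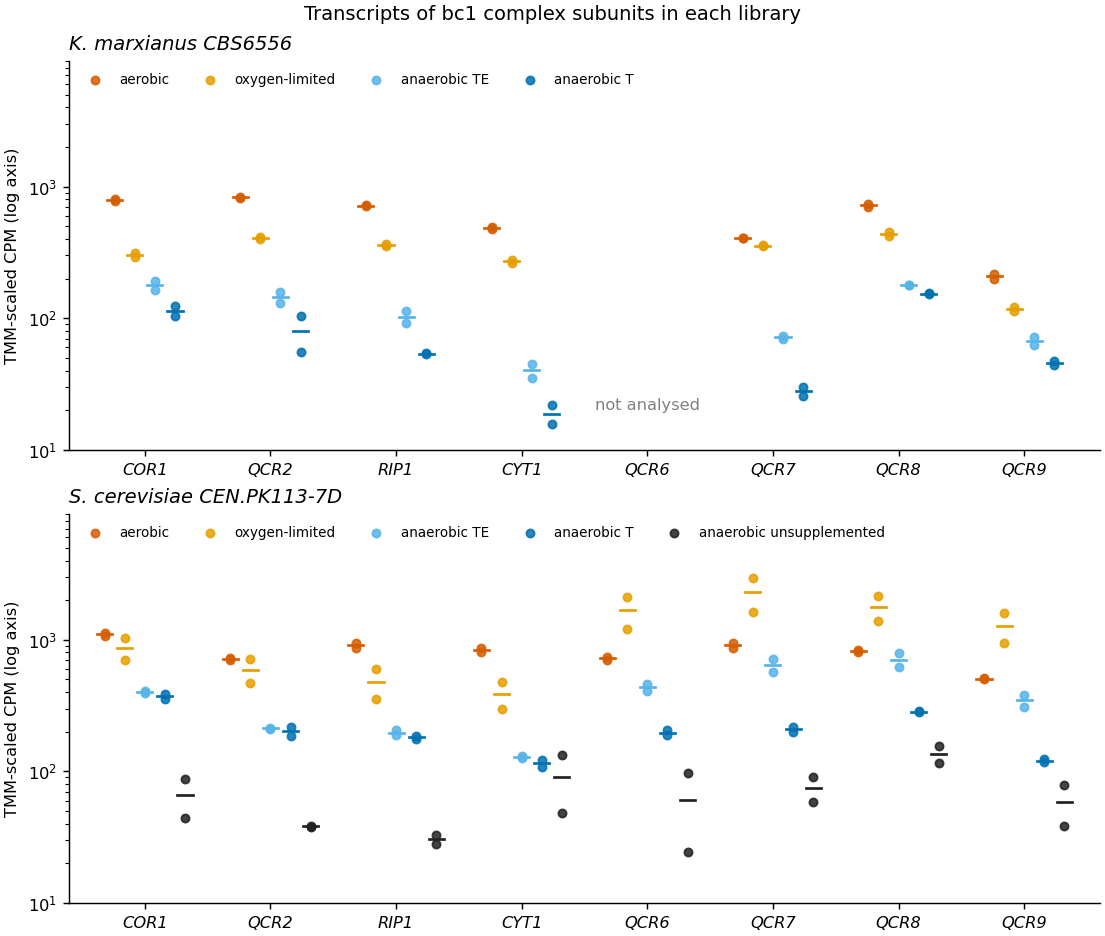
Level of each bc1 subunit in every library, as TMM-scaled CPM on a log axis (points, libraries; bars, group means; n = 2 a group). In K. marxianus the points step down from aerobic to anaerobic T in each gene, while in S. cerevisiae QCR6, QCR7, QCR8 and QCR9 peak in oxygen-limited cultures.

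Every measured K. marxianus subunit was lower in anaerobic TE cultures than in aerobic ones, which also differ in glucose and Tween 80. Here 7 of 7 members fell, where 56.5% of genes were called, 27.9% higher and 28.6% lower. The member median was -2.51, against -0.02 over all genes. CYT1 had 45.1 and 35.2 CPM in TE cultures, against 497.0 and 476.7 CPM in aerobic cultures, a 12.1-fold lower level (log2 -3.60 ± 0.19; adjusted p = 8.97e-06). RIP1 had 113.2 and 92.4 CPM in TE and 728.4 and 709.8 CPM in aerobic cultures, a 6.99-fold lower level (log2 -2.81 ± 0.14; adjusted p = 5.46e-06). Both redox subunits thus lay far below their aerobic range. COR1 had 192.9 and 163.8 CPM and QCR2 158.7 and 131.8 CPM in TE cultures, and these core proteins fell by 2.15 and 2.51 on the log2 scale. QCR7 fell by 2.51, QCR8 by 2.02 and QCR9 by 1.64, the smallest change of the 7. With the length offset the log2 changes were -2.88 for QCR7, -2.34 for QCR8 and -1.99 for QCR9, against -2.13 for COR1 and -2.29 for QCR2.

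In S. cerevisiae, TE cultures had lower levels than aerobic ones of the core and redox subunits, and smaller differences in the small ones. Here 5 of 8 members fell, where 58.7% of genes were called, 29.2% higher and 29.5% lower. CYT1 had 126.5 and 131.5 CPM in TE cultures, against 860.9 and 804.0 CPM in aerobic cultures, a 6.45-fold lower level (log2 -2.69 ± 0.22; adjusted p = 4.53e-05). RIP1 had 190.0 and 204.5 CPM in TE and 948.0 and 862.2 CPM in aerobic cultures (log2 -2.20 ± 0.24). COR1 had 406.0 and 393.6 CPM and QCR2 211.0 and 214.7 CPM in TE cultures. These core proteins changed by -1.46 ± 0.20 and -1.75 ± 0.20. CYT1, cytochrome c1, thus had the largest change of the members in both yeasts.

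Of the S. cerevisiae small subunits only QCR6 was called in TE against aerobic cultures (log2 -0.73 ± 0.25; adjusted p = 0.0362), and it lost the call without any library of the aerobic, TE or T groups (adjusted p = 0.0658 to 0.165). QCR8 had 618.0 and 788.0 CPM in TE cultures, against 835.3 and 811.0 CPM in aerobic cultures (log2 -0.23 ± 0.23; adjusted p = 0.416). QCR7 and QCR9 had log2 changes of -0.49 ± 0.27 and -0.55 ± 0.24 (adjusted p = 0.152 and 0.0843), and both were called lower without either oxygen-limited library. TE libraries lay below aerobic ones in 8 of 8 members, as in 43.7% of all genes. With the length offset all 8 members were called lower, the small subunits by 0.84 to 1.25 on the log2 scale. Comparisons against aerobic cultures share those libraries, so they are not independent of each other.

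Between oxygen-limited and TE cultures, which had the same glucose and supplements, all measured subunits were lower in TE in both yeasts. In K. marxianus 7 of 7 fell, where 52% of genes were called, 25.7% higher and 26.3% lower, and the member median was -1.48. CYT1 (45.1 and 35.2 CPM in TE, against 275.0 and 265.0 CPM in oxygen-limited cultures) changed by -2.75 ± 0.19. QCR7 (73.9 and 69.7 CPM in TE, against 352.2 and 361.9 CPM in oxygen-limited cultures) changed by -2.31 ± 0.12. RIP1 fell by 1.81, QCR2 by 1.48, QCR8 by 1.3, QCR9 by 0.82 and COR1 by 0.76 on the log2 scale. This order depends on gene length: with the length offset the log2 changes were -1.76 for QCR8, -1.27 for QCR9, -1.27 for QCR2 and -0.72 for COR1. QCR7, which was not called in oxygen-limited against aerobic cultures, thus had the second-largest change at this step.

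In S. cerevisiae 8 of 8 members fell in TE against oxygen-limited cultures, where 38.8% of genes were called, 17.5% higher and 21.3% lower, and the member median was -1.53. The members lay close together, between -1.11 for COR1 and -1.94 for QCR6. QCR6 had 409.9 and 459.4 CPM in TE cultures, against 2131 and 1206 CPM in oxygen-limited cultures. RIP1 had 190.0 and 204.5 CPM in TE and 602.3 and 352.2 CPM in oxygen-limited cultures, a log2 change of -1.27 ± 0.23. All 8 were called with the length offset as well (log2 -1.07 to -1.74) and without any single library. When the unsupplemented libraries were added to the fit, only QCR2 of the 8 was called, and all 8 had an unadjusted p under 0.05.

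**Figure D2:**
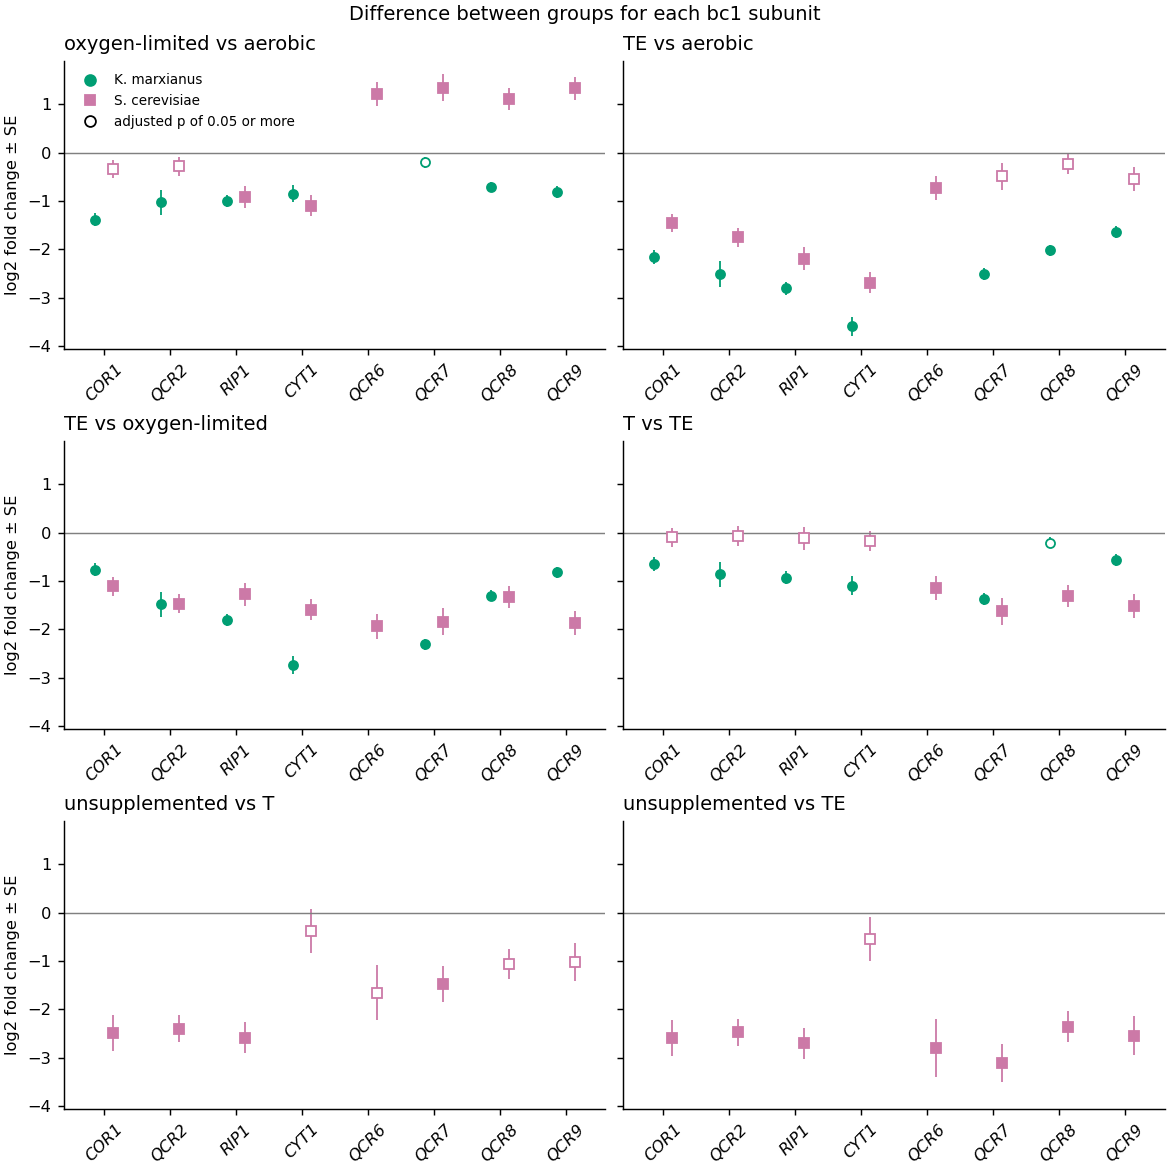
Log2 fold change with its SE for each member in the 6 comparisons, tested group over the group it is set against (circles, K. marxianus; squares, S. cerevisiae; open symbols, adjusted p of 0.05 or more). In oxygen-limited against aerobic cultures the S. cerevisiae small subunits lie between 1.1 and 1.34 and all K. marxianus members lie below 0.

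Anaerobic K. marxianus cultures without ergosterol had lower bc1 transcript levels than those with it. Of 7 members, 6 fell in T against TE cultures, where 37.3% of genes were called, 18.9% higher and 18.4% lower, and the member median was -0.87. QCR7 had 29.8 and 25.7 CPM in T cultures, against 73.9 and 69.7 CPM in TE cultures (log2 -1.37 ± 0.12; adjusted p = 0.00171). CYT1 had 22.0 and 15.7 CPM in T and 45.1 and 35.2 CPM in TE cultures (log2 -1.1 ± 0.19; adjusted p = 0.00597). RIP1 had 53.7 and 54.1 CPM in T and 113.2 and 92.4 CPM in TE cultures, and the T libraries of COR1 had 104.6 and 123.0 CPM. RIP1 fell by 0.93, COR1 by 0.65 and QCR9 by 0.56. The QCR8 level was 153.4 and 155.0 CPM in T cultures, against 178.0 and 178.0 CPM in TE cultures, and was not called (log2 -0.21 ± 0.11; adjusted p = 0.175).

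QCR2 was called at the margin (log2 -0.87 ± 0.27; adjusted p = 0.0402). Its T libraries stood apart, at 103.8 and 55.7 CPM, against 158.7 and 131.8 CPM in TE cultures. The QCR2 call was lost without any library but those of T (adjusted p = 0.0753 to 0.200) and with the length offset (0.0521). COR1 lost its call without TE replicate 1 (adjusted p = 0.0862) and QCR9 without TE replicate 2 (0.0734). With only the T and TE libraries fitted, edgeR called 0 members, while 6 members had an unadjusted p under 0.05. T libraries lay below TE libraries in all 7 members, as in 31.8% of all genes.

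In S. cerevisiae the small subunits were lower in T than in TE cultures, and the larger subunits were not called. Here 4 of 8 members fell, where 50.1% of genes were called, 23% higher and 27.1% lower. QCR7 had 199.0 and 217.4 CPM in T cultures, against 572.5 and 713.7 CPM in TE cultures (log2 -1.63 ± 0.28; adjusted p = 0.00234). QCR9 had 117.6 and 124.1 CPM in T and 309.9 and 383.5 CPM in TE cultures (log2 -1.52 ± 0.25; adjusted p = 0.00192). QCR8 had 285.4 and 282.2 CPM in T and 618.0 and 788.0 CPM in TE cultures, and QCR6 had 187.7 and 206.2 CPM in T and 409.9 and 459.4 CPM in TE cultures. QCR8 and QCR6 fell by 1.31 and 1.14, and their T libraries lay below their TE libraries. CYT1 had 107.8 and 121.9 CPM in T cultures, against 126.5 and 131.5 CPM in TE cultures, and its log2 change of -0.17 ± 0.21 was not called (adjusted p = 0.535). RIP1, COR1 and QCR2 had log2 changes of -0.12, -0.10 and -0.07 (adjusted p = 0.687, 0.692 and 0.783).

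The 684 S. cerevisiae genes of 450 bp or less had a median of -0.98 in this comparison. With the length offset QCR7 (log2 -0.78; adjusted p = 0.0486) and QCR9 (-0.71; 0.0451) were still called lower, and QCR6 (-0.36; 0.285) and QCR8 (-0.39; 0.168) were not. RIP1 and CYT1 then had log2 changes of 0.42 and 0.05, not called. QCR6 lost its call without TE replicate 2 or T replicate 1 (adjusted p = 0.0563 and 0.0612). With the unsupplemented libraries in the fit, edgeR called 0 members, 3 of which had an unadjusted p under 0.05. What part gene length has in the difference was not tested.

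**Figure D3:**
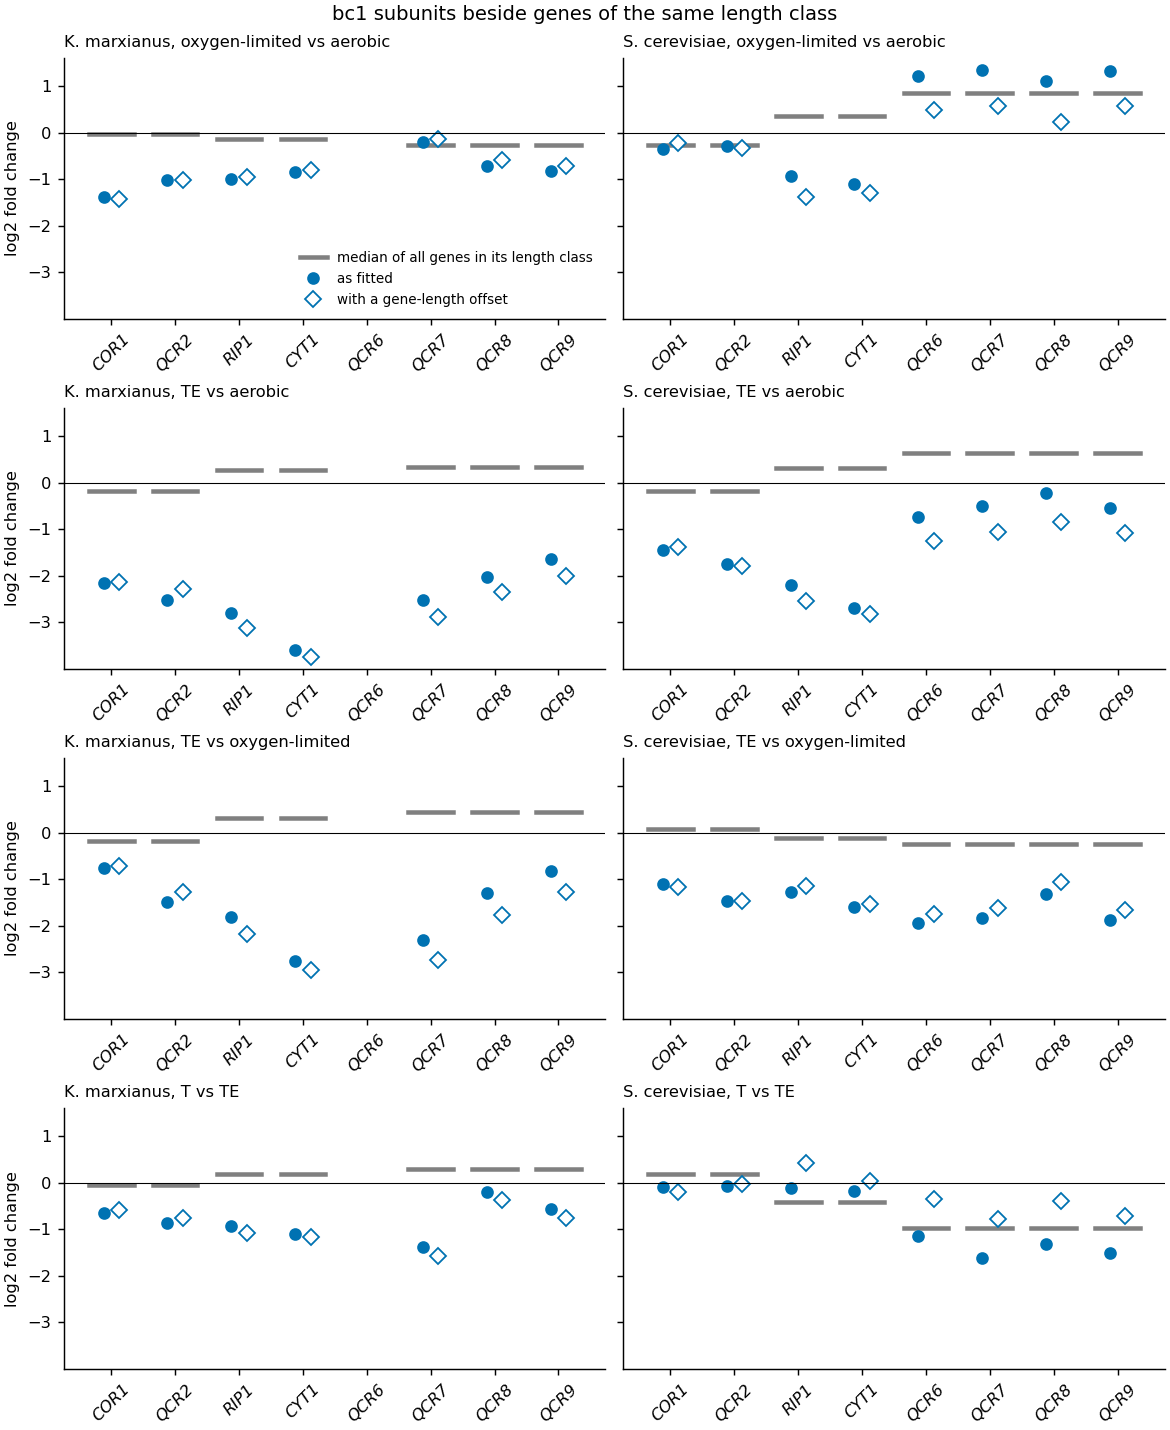
Log2 fold change of each member as fitted (filled circles) and with a gene-length offset (open diamonds), beside the median of all genes in its length class (grey bars), for the 4 comparisons made in both yeasts. In S. cerevisiae the small subunits in oxygen-limited against aerobic cultures lie at 1.1 to 1.34 as fitted and at 0.23 to 0.58 with the offset, and in K. marxianus the small subunits lie lower with the offset in TE against oxygen-limited cultures, as QCR8 at -1.76.

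In TMM-scaled CPM, every member but CYT1 was lower in both unsupplemented libraries than in any other S. cerevisiae library. Replicate 2 of this group holds only 26 to 140 counts per member, so its values are the least precise. Its TMM factor was 0.371, against 1.08 in replicate 1 and 0.972 to 1.21 over the other S. cerevisiae libraries. The CPM of replicate 2 therefore depend strongly on this scaling. RIP1 had 27.9 and 33.1 CPM in unsupplemented cultures, against 176.6 and 185.9 CPM in T cultures (log2 -2.58 ± 0.31; adjusted p = 0.00900). QCR2 had 38.0 and 38.8 CPM in unsupplemented and 186.8 and 218.1 CPM in T cultures (log2 -2.40 ± 0.28; adjusted p = 0.00839). Both genes had close CPM in the unsupplemented libraries only after scaling, on 35 counts of RIP1 and 41 of QCR2 in replicate 2. Replicate 1 had 330 and 449 counts of them. Together the members held 0.0671% of the raw counts in replicate 1 and 0.0181% in replicate 2. The members as a whole did not have close CPM: replicate 1 minus replicate 2 ran from -1.45 to 1.97 on the log2 scale among them. Over 5562 genes that difference had an SD of 1.72. COR1 had 86.7 and 44.4 CPM in unsupplemented and 357.0 and 389.4 CPM in T cultures. COR1 (log2 -2.49 ± 0.37; adjusted p = 0.0159) and QCR7 (-1.47 ± 0.37; 0.0479) were also called, so 4 of 8 fell, where 11.3% of 5868 genes were called, 8.37% higher and 2.95% lower. The all-gene median in this comparison was 0.11.

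The remaining small subunits were not called against T cultures, with log2 changes of -1.65 for QCR6, -1.05 for QCR8 and -1.02 for QCR9 (adjusted p = 0.0626 to 0.107). QCR6 had 97.0 and 24.6 CPM in unsupplemented cultures, against 187.7 and 206.2 CPM in T cultures, so the groups were apart but the unsupplemented libraries differed. CYT1 had 48.2 and 132.4 CPM in unsupplemented and 107.8 and 121.9 CPM in T cultures, which overlap (log2 -0.37 ± 0.46, adjusted p = 0.558). This overlap rests on the TMM factor of unsupplemented replicate 2. By share of raw counts both unsupplemented libraries lay below both T libraries. CYT1 held 569 of 10960290 and 140 of 2849618 counts in the former, and 1294 of 10442512 and 1829 of 13112466 in the latter. Without unsupplemented replicate 2 the CYT1 log2 change was -1.25 and called (adjusted p = 0.00867), and without replicate 1 it was 0.20. The count of calls was 0 without either T library, 5 members then having an unadjusted p under 0.05, and 2 without any aerobic or TE library. It was 7 without either unsupplemented library and 5 with the length offset, where genes of 450 bp or less had a median of 0.87 and those over 1000 bp one of -0.23.

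Against TE cultures, whose title code they share, unsupplemented cultures had 7 of 8 members lower, where 8.67% of genes were called, 6.1% higher and 2.57% lower. QCR7 had 90.1 and 58.6 CPM in unsupplemented cultures, against 572.5 and 713.7 CPM in TE cultures, an 8.57-fold lower level (log2 -3.10 ± 0.39; adjusted p = 0.00586). QCR6, RIP1 and COR1 fell by 2.79, 2.70 and 2.59, and QCR9, QCR2 and QCR8 by 2.54, 2.47 and 2.36. CYT1 was not called (log2 -0.54 ± 0.46, adjusted p = 0.410), and its level in unsupplemented replicate 2 again rests on the TMM factor of that library. In this comparison the length classes had medians of -0.04, -0.02 and -0.04. Only 3 members were called without TE replicate 1 and 1 without TE replicate 2, and all 8 without unsupplemented replicate 2.

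The balance of the roles can be read within each library, as the mean log2 CPM of the small subunits minus that of RIP1 and CYT1. This grouping was made after the values were seen, and the values are a description. They are not levelled over gene length, and the small subunits are also the shortest genes. In S. cerevisiae the difference was -0.30 and -0.23 in the aerobic libraries, 2.0 and 1.96 in oxygen-limited, 1.57 and 1.77 in TE, 0.45 and 0.40 in T, and 1.47 and -0.39 in unsupplemented cultures. In K. marxianus they were -0.62 and -0.55 in aerobic, -0.30 and -0.17 in oxygen-limited, 0.39 and 0.75 in TE, and 0.80 and 0.93 in T cultures. The unsupplemented replicates lay apart, and in every other group of both yeasts that was not aerobic both libraries lay above the aerobic ones. For small subunits minus core proteins the same held except in S. cerevisiae T cultures (-0.46 and -0.55, against -0.30 and -0.29 in aerobic). For core proteins minus redox subunits it held except in oxygen-limited K. marxianus (0.16 and 0.18, against 0.43 and 0.47 in aerobic). The K. marxianus small-subunit mean is without QCR6.

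**Figure D4:**
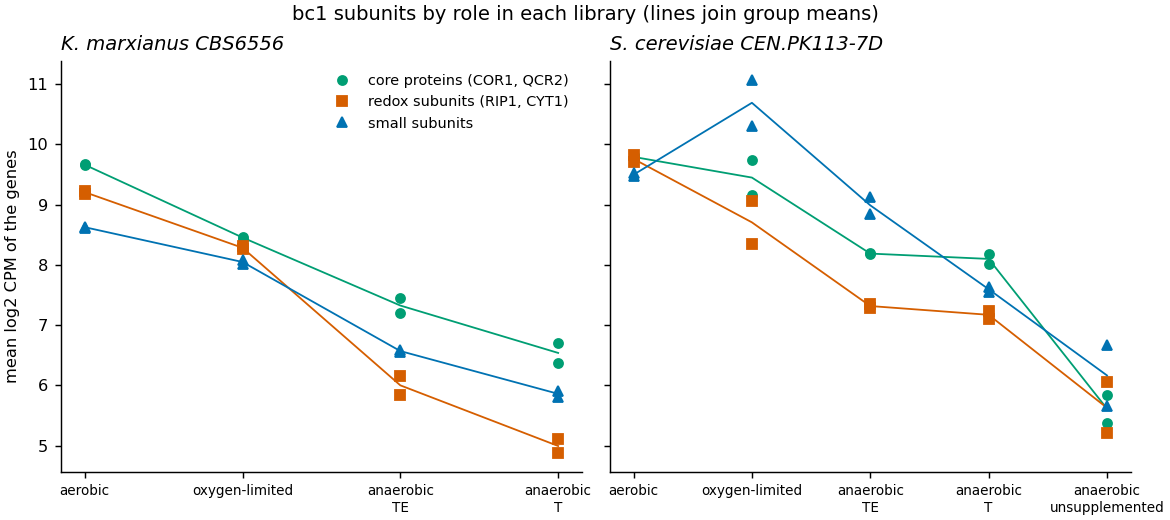
Mean log2 CPM of the core proteins (COR1, QCR2), the redox subunits (RIP1, CYT1) and the small subunits in each library (points) with lines joining group means, by culture condition. The S. cerevisiae small subunits rise above both other roles in oxygen-limited cultures, and the K. marxianus redox subunits are lowest in both anaerobic groups.

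The change between conditions was then set side by side in the 2 yeasts for the 7 members matched 1 to 1, as the log2 fold change in K. marxianus less the one in S. cerevisiae, tested in a joint fit of 3885 genes. For oxygen-limited against aerobic cultures 4 members differed, all more negative in K. marxianus, where 56.3% of matched genes differed, 27.5% more negative and 28.8% more positive in K. marxianus. They were COR1 (-1.04 ± 0.24; adjusted p = 0.00306), QCR7 (-1.55 ± 0.32; 0.00122), QCR8 (-1.82 ± 0.26; 9.28e-05) and QCR9 (-2.14 ± 0.29; 5.63e-05). RIP1 and CYT1 had differences of -0.07 ± 0.28 and 0.25 ± 0.29, not called. With the length offset QCR7 was no longer called (-0.70; adjusted p = 0.0827), and COR1, QCR8 and QCR9 were, at -1.19, -0.81 and -1.30.

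For TE against aerobic cultures 5 members differed, all more negative in K. marxianus, where 44.7% of matched genes did, 20.5% more negative and 24.2% more positive there. QCR7 had -2.02 ± 0.32, QCR8 -1.79 ± 0.26, QCR9 -1.09 ± 0.29, CYT1 -0.91 ± 0.29 and COR1 -0.70 ± 0.24. With the length offset 5 members were called too, these same genes. COR1 lost its call when any of 11 libraries was left out (adjusted p = 0.0501 to 0.125) and CYT1 when any of 6 was (0.0501 to 0.104). For TE against oxygen-limited cultures 2 members differed, where 46.2% of matched genes did (22% more negative and 24.2% more positive in K. marxianus). CYT1 fell more in K. marxianus (-1.15 ± 0.29) and QCR9 fell less (1.05 ± 0.29), a call lost without S. cerevisiae TE replicate 1 (adjusted p = 0.0512). With the length offset QCR9 was not called (0.39; adjusted p = 0.299), CYT1 was (-1.42), and so were QCR7 (-1.13; 0.0154), QCR8 (-0.69; 0.0400) and RIP1 (-1.01; 0.0146). For T against TE cultures 4 differed, where 50.7% did (24.7% more negative and 26% more positive in K. marxianus). The change was more negative in K. marxianus for RIP1 (-0.81 ± 0.29) and CYT1 (-0.93 ± 0.31), and in S. cerevisiae for QCR8 (1.1 ± 0.26) and QCR9 (0.96 ± 0.30). The RIP1, CYT1 and QCR9 calls were lost when any of 6, 5 and 3 libraries was left out, with adjusted p of up to 0.126, 0.105 and 0.0725. With the length offset the T against TE differences of QCR8 and QCR9 were 0.02 and -0.04, and those of RIP1 and CYT1 were -1.49 and -1.21 and called.

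Levels of different genes were compared per length, as CPM divided by the length of the row in kilobases (RPKM). QCR8 was the most abundant member in all 9 groups, at 2531 RPKM in aerobic K. marxianus and 2888 RPKM in aerobic S. cerevisiae. In aerobic K. marxianus the order below QCR8 was RIP1, QCR7, QCR9, COR1, CYT1 and QCR2, and in aerobic S. cerevisiae it was QCR7, QCR6, RIP1, QCR9, CYT1, COR1 and QCR2. No neighbours in these aerobic orders overlapped. In oxygen-limited S. cerevisiae QCR8 averaged 6185 RPKM and overlapped QCR7, at 5989 RPKM, which in turn overlapped QCR6, as QCR6 did QCR9. The lowest member was QCR2 in aerobic and oxygen-limited K. marxianus (443.8 and 217.8 RPKM), where it overlapped COR1 in oxygen-limited cultures, and CYT1 in TE and T cultures (45.7 and 21.4 RPKM). The K. marxianus QCR2 values depend on its long row. In S. cerevisiae the lowest was QCR2 in aerobic and unsupplemented cultures (648.6 and 34.7 RPKM) and CYT1 in oxygen-limited, TE and T cultures (418.8, 138.7 and 123.5 RPKM), overlapping QCR2 in oxygen-limited cultures. In unsupplemented cultures QCR2 overlapped COR1, which had 63.1 and 32.3 RPKM. The top member exceeded the lowest 5.70, 7.07, 13.7 and 25.2 times in aerobic, oxygen-limited, TE and T cultures of K. marxianus. In S. cerevisiae, with unsupplemented cultures last, these ratios were 4.45, 14.8, 17.8, 8.07 and 13.8. By these ratios the spread of subunit levels was narrowest in aerobic cultures of either yeast. They are not levelled over gene length, and QCR8, at 285 bp, is the shortest row in both. S. cerevisiae genes of 450 bp or less had medians of 0.85 and 0.63 in oxygen-limited and TE against aerobic cultures. The part of gene length in these ratios was not tested.

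Genes that assemble the complex or express cytochrome b moved in both directions in K. marxianus. For T against TE cultures 3 of the 7 matched genes of that list were higher and 1 lower, where 18.9% and 18.4% of all genes were. BCS1, the translocase that inserts the Rieske protein, had 261.9 ± 40.0 CPM in T and 103.0 ± 7.79 CPM in TE cultures (SD, n = 2; log2 1.35). CBP6, which acts with CBP3 in cytochrome b synthesis, had 415.5 ± 48.0 CPM in T and 179.5 ± 13.1 CPM in TE cultures (log2 1.21). CBS2, a translational activator of cytochrome b, also rose (1.02), from 20.5 ± 1.76 CPM in TE to 41.6 ± 21.7 CPM in T cultures. The T libraries of CBS2 differed 2.16-fold. CBP4, an assembly factor of cytochrome b, fell (-1.09), as RIP1 and CYT1 did. In oxygen-limited against aerobic K. marxianus 1 rose and 3 fell, in TE against aerobic 1 rose and 2 fell, and in TE against oxygen-limited 2 rose and 2 fell. Of all genes 47%, 56.5% and 52% were called in these comparisons, so the number called in the list is near or below the share over all genes.

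In S. cerevisiae 9 of the 11 assembly genes were higher and none lower in oxygen-limited than in aerobic cultures, with a median of 0.92, where 30.8% of all genes were called higher. The list holds short genes, MZM1 (372 bp) and CYT2 (432 bp), and the short-gene median in this comparison was 0.85. Its genes over 1000 bp had log2 changes of 0.04 to 1.18, where the median of all genes over 1000 bp was -0.27. The part of gene length in the rise was not tested. CBP4 rose by 1.80, MZM1, the chaperone of the Rieske protein, by 1.57 and CBP3 by 1.18. In TE against aerobic cultures 5 rose and 0 fell, where 29.2% of all genes were called higher. In TE against oxygen-limited cultures 0 rose and 7 fell (median -0.51), and in T against TE cultures 0 rose and 10 fell (median -0.62), where 21.3% and 27.1% of all genes were called lower. BCS1 was thus lower in T than in TE cultures of S. cerevisiae (54.0 ± 2.55 against 83.2 ± 5.55 CPM; log2 -0.62), where it was higher in K. marxianus. That difference between yeasts was not tested for this gene. In unsupplemented cultures MZM1 was higher than in T cultures (log2 1.04) and CBS2 lower than in TE cultures (-0.80), with no other gene of the list called.

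Cytochrome c, the electron acceptor of the complex, is encoded by CYC1, with the isoform CYC7 in S. cerevisiae. K. marxianus CYC1 was higher in oxygen-limited than in aerobic cultures (894.9 ± 84.1 against 556.7 ± 24.5 CPM; log2 0.68), while the subunits were lower. It fell to 84.1 ± 6.49 CPM in TE cultures (log2 -3.41 against oxygen-limited) and to 22.6 ± 4.85 CPM in T cultures (log2 -1.90 against TE). In S. cerevisiae CYC1 had 1205 ± 708 CPM in oxygen-limited and 514.6 ± 35.6 CPM in aerobic cultures (log2 1.23; adjusted p = 0.0154), and 53.5 ± 3.96 CPM in TE cultures (log2 -3.27 against aerobic). CYC7 rose by 2.12 in TE against aerobic cultures and fell by 2.18 in T against TE cultures. The S. cerevisiae rows of CYC1 and CYC7, at 330 and 342 bp, are short. Genes of 450 bp or less had medians of 0.85 in oxygen-limited against aerobic, 0.63 in TE against aerobic and -0.98 in T against TE cultures. MAS1 and MAS2, the peptidase subunits related to the core proteins, went opposite ways in S. cerevisiae: in TE against aerobic cultures MAS1 fell (-0.82) and MAS2 rose (0.62), and in oxygen-limited against aerobic cultures they changed by -0.39 and 0.89. In K. marxianus MAS2 fell by 0.69 in TE against aerobic cultures and MAS1 was not called.

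The neighbouring complexes give the setting of these changes. In TE against aerobic cultures of K. marxianus all 8 nuclear subunits of cytochrome c oxidase (median -2.11), all 14 of ATP synthase (-1.40) and all 3 matched subunits of succinate dehydrogenase (-2.01) fell, where 28.6% of all genes were called lower. In S. cerevisiae 5 of 8, 5 of 14 and 4 of 4 fell, with medians of -1.0, -0.48 and -1.74, where 29.5% of all genes were called lower. In oxygen-limited against aerobic S. cerevisiae cultures 6 of 8 oxidase and 9 of 14 ATP synthase genes rose, with medians of 1.15 and 0.78, and 2 of 4 dehydrogenase genes fell, where 30.8% of all genes were called higher and 31.8% lower. In K. marxianus 3 of 8, 13 of 14 and 3 of 3 fell at that step, where 25% of all genes were called lower. For T against TE cultures of S. cerevisiae 7 of 8 oxidase and 11 of 14 ATP synthase genes fell (medians -1.51 and -1.09), where 27.1% of all genes were called lower. No test set these lists against the bc1 members. The lists hold short genes too, and the counts are not corrected for gene length.

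By the root mean square difference from the members' mean profile in log2 CPM, QCR2 and RIP1 were the members nearest to it in K. marxianus (0.19 each over 8 libraries) and CYT1 the farthest (0.65). Of 4893 genes ranked, the 5 other genes nearest to it were KM6556v0_C001030 (0.0956), KM6556v0_F002920 (0.158) and KM6556v0_B004800 (0.184), which the files pair with no S288C locus, then SFC1, a mitochondrial succinate-fumarate carrier (0.21), and SDH3, a subunit of succinate dehydrogenase (0.23). In S. cerevisiae, over 10 libraries and 5562 genes, QCR2 was the nearest member (0.32) and CYT1 again the farthest (0.84). These libraries include the unsupplemented ones, where CYT1 had 48.2 and 132.4 CPM. In both yeasts the mean profile contains the members themselves. The 5 other genes were SCEN_G00910 (0.294), with no S288C locus in the files, COX4, a cytochrome c oxidase subunit (0.29), ATP16, a subunit of ATP synthase (0.33), KGD4 of the ketoglutarate dehydrogenase complex (0.35) and PET9, the main ADP/ATP carrier (0.35). Likeness is measured here over cultures that share libraries and groups with the results above, and is a description.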

How the data were processed

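Poly(A) RNA from frozen cells was sequenced from a stranded kit, per the labels' protocols. The authors deposited raw gene counts made with featureCounts, requiring both ends mapped and without a strand option, per the file headers, and Bowtie 1.2.1.1, SAMtools 1.3.1, featureCounts 1.6.0 and edgeR 3.28.1 are named in the submitters' processing notes. Genome builds are not given in the sources used here. The deposited log2 fold changes of the authors' own comparisons were used only to check direction.

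Counts were fitted per species with edgeR 4.0.16 in R 4.3.3: TMM factors, filterByExpr, and the quasi-likelihood test with Benjamini-Hochberg adjustment over 5143 genes in K. marxianus (8 libraries) and 5849 in S. cerevisiae (8 libraries, without the unsupplemented ones). The unsupplemented comparisons used all 10 libraries and 5868 genes. SE is the log2 fold change over the root of F. The biological coefficient of variation was 15.5% in K. marxianus, and 12.7% without and 32.1% with the unsupplemented libraries in S. cerevisiae. Species differences came from 1 fit of 16 libraries. On simulated counts for TE against oxygen-limited cultures, 84% of 2-fold and 100% of 4-fold changes were called in K. marxianus (5130 genes) and 91% and 100% in S. cerevisiae (5837 genes).

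The length offset takes each library's deviation from gene means, smoothed on log2 gene length (lowess span 0.3). Members and lists were chosen with earlier results of these data known. All members were named, list genes were named where called, and 5 further genes per species by likeness to the mean profile, among genes averaging at least 10 CPM. Replicate numbers follow accession order and were not used to pair libraries. For T and TE in K. marxianus and unsupplemented and TE in S. cerevisiae, libraries of the same number also share a title stem, whose meaning the labels do not give, and the stem was tried as a block. Alternatives were DESeq2 1.42.0, its size factors, no filter, other sets of libraries, leaving out each library and a replicate block.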

Additional observations from a re-analysis of the deposited data

Results flagged for a closer look

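The change between 2 conditions differed between the yeasts, by the joint edgeR quasi-likelihood test of the K. marxianus minus the S. cerevisiae log2 fold change, in 15 member and comparison pairs. In oxygen-limited against aerobic cultures the differences were -1.04 for COR1, -1.55 for QCR7, -1.82 for QCR8 and -2.14 for QCR9. In TE against aerobic cultures they were -0.70 for COR1, -2.02 for QCR7, -1.79 for QCR8, -1.09 for QCR9 and -0.91 for CYT1. In TE against oxygen-limited cultures they were 1.05 for QCR9 and -1.15 for CYT1. In T against TE cultures they were 1.1 for QCR8, 0.96 for QCR9, -0.81 for RIP1 and -0.93 for CYT1. In the same order, 56.3%, 44.7%, 46.2% and 50.7% of matched genes differed in either direction. More negative in K. marxianus were 27.5%, 20.5%, 22% and 24.7%, and more positive 28.8%, 24.2%, 24.2% and 26%. With the gene-length offset QCR7 in oxygen-limited against aerobic cultures (-0.70; adjusted p = 0.0827), QCR9 in TE against oxygen-limited cultures (0.39) and QCR8 and QCR9 in T against TE cultures (0.02 and -0.04) were not called.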

How the results depend on the processing

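The gene-length offset and the crossed block were chosen after seeing the data. Leaving the unsupplemented libraries out of the other S. cerevisiae comparisons was also chosen with earlier results known, in which these libraries stood apart. The fit with them is among the alternatives below. Of the single-gene results across alternatives, 949 kept direction and side of the threshold within a species, 96 lost and 25 gained a call and 5 reversed; for species differences the numbers were 465, 35, 19 and 13. The cause of these changes was not tested.

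Counts of members called that moved by over 1.5 times follow. With only the compared groups fitted by edgeR, 0 were called for K. marxianus T against TE and for S. cerevisiae unsupplemented against T and against TE, with 6, 5 and 7 at an unadjusted p under 0.05. With all 10 S. cerevisiae libraries, 1 was called in oxygen-limited against aerobic, 1 in TE against oxygen-limited and 0 in T against TE (3 at an unadjusted p under 0.05). DESeq2 called 7 in unsupplemented against T. With the length offset the counts were 2 in S. cerevisiae oxygen-limited against aerobic, 8 in TE against aerobic and 2 in T against TE, and for species differences 4 in TE against oxygen-limited and 2 in T against TE.

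Signs reversed with the length offset for RIP1 (0.42) and CYT1 (0.046) in S. cerevisiae T against TE, and for the species differences of RIP1 in oxygen-limited against aerobic (0.42), QCR2 (0.19) and QCR8 (-0.69) in TE against oxygen-limited, and QCR7 (-0.80) and QCR9 (-0.038) in T against TE.

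Leaving out 1 library gave, for K. marxianus, 4 to 7 calls in oxygen-limited against aerobic, 7 to 7 in TE against aerobic, 7 to 7 in TE against oxygen-limited and 4 to 6 in T against TE. For S. cerevisiae, in the same order, it gave 5 to 8, 4 to 7, 8 to 8 and 3 to 4, then 0 to 7 in unsupplemented against T and 1 to 8 against TE. For species differences it gave 4 to 5, 3 to 6, 1 to 4 and 1 to 6. For TE against aerobic it gave 3 without either K. marxianus aerobic library, K. marxianus TE replicate 2, S. cerevisiae aerobic replicate 2 or either S. cerevisiae TE library. For TE against oxygen-limited it gave 4 without S. cerevisiae oxygen-limited replicate 1 and 1 without S. cerevisiae TE replicate 1. For T against TE it gave 1 without K. marxianus TE replicate 1 or S. cerevisiae TE replicate 2, and 2 without S. cerevisiae TE replicate 1 or either S. cerevisiae T library. Log2 changes that crossed 0 ranged from -0.19 to 0.035 (QCR2, S. cerevisiae T against TE), -1.25 to 0.20 and -1.42 to 0.037 (CYT1, unsupplemented against T and TE), and for species differences -0.41 to 0.36 (RIP1) and -0.054 to 0.62 (CYT1) in oxygen-limited against aerobic, and -0.35 to 0.26 (QCR2) and -0.32 to 0.30 (QCR8) in TE against oxygen-limited.

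Libraries of T and TE in K. marxianus, and of unsupplemented and TE in S. cerevisiae, share a stem in their titles. Replicate differences of these groups had a Pearson correlation of 0.20 over 4893 genes and -0.10 over 5562 genes. With the stem as a replicate block 6 and 7 members were called, and 7 with the stems crossed in S. cerevisiae.

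Depth and scaling limit mainly the unsupplemented group, whose replicate 2 has 2849618 counts and a TMM factor of 0.371.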
